A study of Mus musculus with 12 samples.

Results

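The type I interferon response genes are the set of genes that cells switch on when interferon alpha or beta binds its receptor, and they are described here in microglia, the resident macrophages of the brain. The set holds 35 named genes out of 23337 gene rows in the deposited count table. They were chosen by symbol for their known membership of the response, with earlier results of these data known. All 35 had a row. Of these, 33 passed the filter on low counts, which kept 12217 genes for testing. Oas3 and Ifi44 did not pass and are described by their levels alone.

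Bulk RNA sequencing was done on microglia of wild-type male C57BL/6N mice aged 60 days (P60), with 4 brain regions (cortex, hippocampus, striatum and cerebellum) of 3 libraries each, 12 in all. The labels name no treatment or infection for any group. Each library came from 3000 live cells, sorted by TMEM119, CD11b and low CD45 out of regional tissue that combined 3 to 5 mice. Whether libraries of one region came from different mice is not stated, and p-values therefore measure the spread among these libraries alone, which could be technical. The gate selects cells by TMEM119 protein, so microglia that have lost this homeostatic marker were outside the material.

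Interferon alpha and beta act through a receptor of the subunits IFNAR1 and IFNAR2, whose kinases JAK1 and TYK2 phosphorylate STAT proteins, among them STAT2. STAT2 and IRF9 are parts of the complex ISGF3, which binds interferon-stimulated response elements in the promoters of target genes. In the brain, microglia are one of the cell types that respond to interferon, and low tonic interferon signalling keeps the factors of the pathway present before any infection.

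A response element of this kind contains GAAA repeats set a short distance apart. The promoter windows in the RefSeq table (build GRCm38.p6, 250 bases before to 50 bases after a gene's start) were searched on both strands for GAAA, any 2 bases, GAAA. The table matched 26 of the 35 members. Mx2, Parp14, Rtp4, Zbp1, Dhx58, Oas2, Usp18, Mx1 and Ifi27l2a had no entry. The motif was in a window of 13 of the 26 members (50%), against 1079 of all 27025 genes in the table (3.99%). The 13 were Stat2, Ifih1, Ddx58, Ifit1, Ifit3, Oas1a, Oas3, Ifitm2, Ifitm3, Bst2, Isg15, Rsad2 and Eif2ak2. The other motif searched, TTC, any 3 bases, GAA, the core that STAT dimers bind, was in 8 of the 26 members (30.8%) and in 9.55% of all genes. The motifs can overlap each other, and a match describes letters only. The stretches below hold the first motif with up to 30 bases on each side, read 5′ to 3′ on the gene's own strand. They are shown because these genes span a wide range of the levels described next, from Oas3, without a count in 11 libraries, to Stat2 and Bst2. Capitals mark the matches.
Isg15 (chr4:156200845-156200926, minus strand): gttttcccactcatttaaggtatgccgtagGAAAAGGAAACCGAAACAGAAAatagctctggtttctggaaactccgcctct
Ifit1 (chr19:34640755-34640843, plus strand): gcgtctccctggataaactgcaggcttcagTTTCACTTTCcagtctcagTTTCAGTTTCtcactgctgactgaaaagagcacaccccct
Ifit3 (chr19:34583343-34583446, plus strand): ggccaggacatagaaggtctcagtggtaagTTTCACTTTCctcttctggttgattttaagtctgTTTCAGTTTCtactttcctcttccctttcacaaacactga
Oas3 (chr5:120777695-120777764, minus strand): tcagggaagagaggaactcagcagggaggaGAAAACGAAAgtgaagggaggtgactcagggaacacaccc
Rsad2 (chr12:26456533-26456602, minus strand): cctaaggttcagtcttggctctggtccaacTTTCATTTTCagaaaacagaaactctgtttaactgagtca
Bst2 (chr8:71537557-71537632, minus strand): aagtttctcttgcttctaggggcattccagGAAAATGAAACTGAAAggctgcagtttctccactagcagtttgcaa
Stat2 (chr10:128270248-128270315, plus strand): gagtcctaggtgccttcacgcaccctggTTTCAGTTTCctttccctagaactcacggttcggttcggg
In Isg15 3 matches overlapped in a single run. Ifit1 and Ifit3 each held a pair, on the opposite strand to the gene. In Bst2 the matches overlapped.

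Library totals lay between 6479839 counts (striatum 2) and 14833340 counts (cortex 2). Levels are given as CPM, read counts scaled to a common library size. Where a gene had no count, a level of up to 3 counts remains possible, which covers counting error only. By library totals, without the TMM scaling used for the other levels, this is 0.202 to 0.463 CPM depending on the library. Striatum 2 stood apart from the rest. Genes averaging 50 counts or more numbered 10018, and 986 of them (9.84%) were without a count in striatum 2, where no other library exceeded 0.439%. Among them were 26 members, of which 2, Ifit2 and Sp100, were at 0 there. The 10 microglia markers summed to 29631 to 40659 CPM in all 12 libraries, with Tmem119 at 1081 to 3240 CPM. Markers of T and NK cells summed to at most 2.10 CPM and those of neutrophils to at most 0.94 CPM, with Cd3e, Cd3d and Cd3g at 0. Choroid plexus and ependymal markers reached 834 CPM in striatum 2, against 0 to 291 CPM in the other libraries. Endothelial markers summed to 0.807 CPM in striatum 2 and 38.9 to 71.7 CPM elsewhere. The sums elsewhere were mostly Pecam1 and Egfl7, which were both at 0 in striatum 2, and Cldn5 had 1 count over all libraries. Several counts and differences that striatum 2 moves are given with and without it. In bulk RNA, fewer responding cells and less RNA per cell cannot be told apart.

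Most members were present in every region at 1 to 100 CPM. By their mean over the 12 libraries, 2 were at baseline (under 1 CPM), 13 were low (1 to 10 CPM), 19 were between 10 and 100 CPM, and Irf1 alone was above 100 CPM. A count was present in all 12 libraries for 24 members, and 21 had more than 3 counts in each of them. Oas3, the longest of the oligoadenylate synthetases, was the single member at baseline in all 4 regions. Its counts lay in cerebellum 1 alone, at 1.27 CPM. Ifi44, an interferon-induced gene whose function is not settled, had no count in hippocampus or striatum. It was at 3.65 CPM in cortex 3, 1.72 CPM in cerebellum 2, 0.810 CPM in cerebellum 1 and 0.0647 CPM in cortex 2. Its mean in cortex therefore rests on cortex 3, and without that library Ifi44 too was at baseline in all regions. By region means, striatum had 6 members at baseline, cerebellum 3, hippocampus 2 and cortex 1. The 6 in striatum were Oas3, Ifi44, Zbp1, Oasl1, Rsad2 and Isg20. Without striatum 2 they were 4, since Rsad2 and Isg20 then averaged above 1 CPM. Leaving out any single library of a region gave 4 to 7 in striatum, 2 to 5 in hippocampus (5 without hippocampus 2), 2 to 3 in cerebellum and 1 to 2 in cortex. The 8 members without a count in striatum 2 were Ifit1, Ifit2, Oas3, Oasl1, Cmpk2, Isg20, Ifi44 and Sp100.

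**Figure D1:**
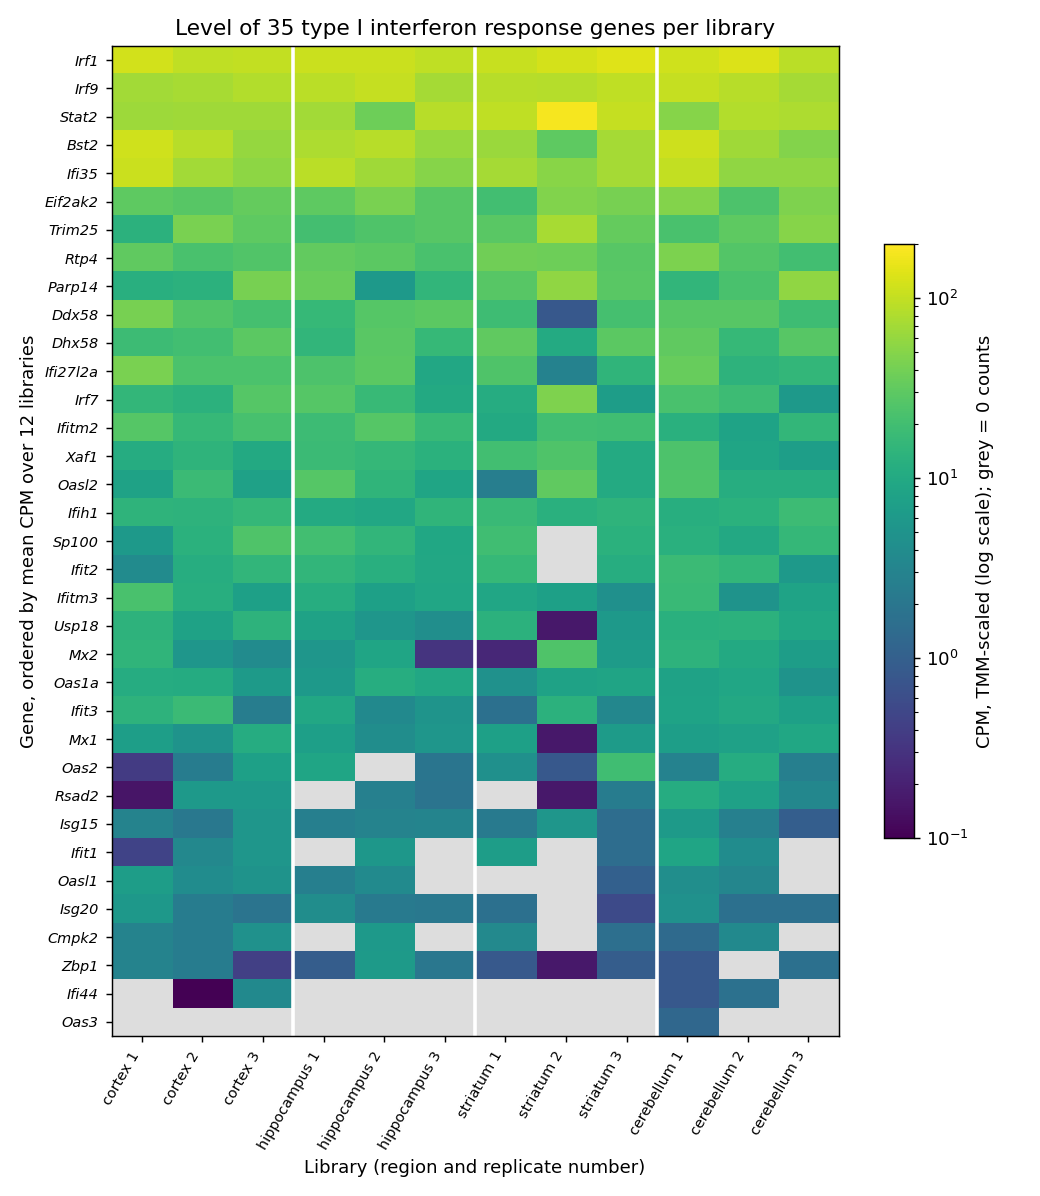
Level of each of the 35 members (rows, ordered by their mean) in each of the 12 libraries (columns, white lines between regions), in CPM on a log colour scale, with grey for 0 counts. Irf1, Irf9, Stat2, Bst2 and Ifi35 form the top rows, Ifi44 and Oas3 the bottom rows, and striatum 2 has 8 grey cells.

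Levels were compared between genes after division by exonic length (GENCODE M21). The 33 tested members had a median of 3.27 CPM per kb, against 7.49 CPM per kb for all tested genes with a length. Below the latter median lay 24 of the 33. Above the upper quartile of genes were 5 members: Bst2 at 81.7 CPM per kb, Ifi27l2a at 46.5, Ifi35 at 41.1, Irf1 at 27.8 and Ifitm2 at 27.1. Below the lower quartile were 10. By role, the 3 membrane effectors were at 14.9 to 81.7 CPM per kb and the 4 transcription factors at 4.89 to 27.8. The 5 genes of RNA sensing were at 0.462 to 7.00 CPM per kb, the 3 tetratricopeptide genes at 1.13 to 4.59 and the GTPases Mx1 and Mx2 at 1.72 and 2.32. The 5 oligoadenylate synthetase genes lay at 0.0150 to 4.35 CPM per kb. Ranks among neighbours in these lists are not tested, since library values of one gene often spread by more than the gap between genes.

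**Figure D2:**
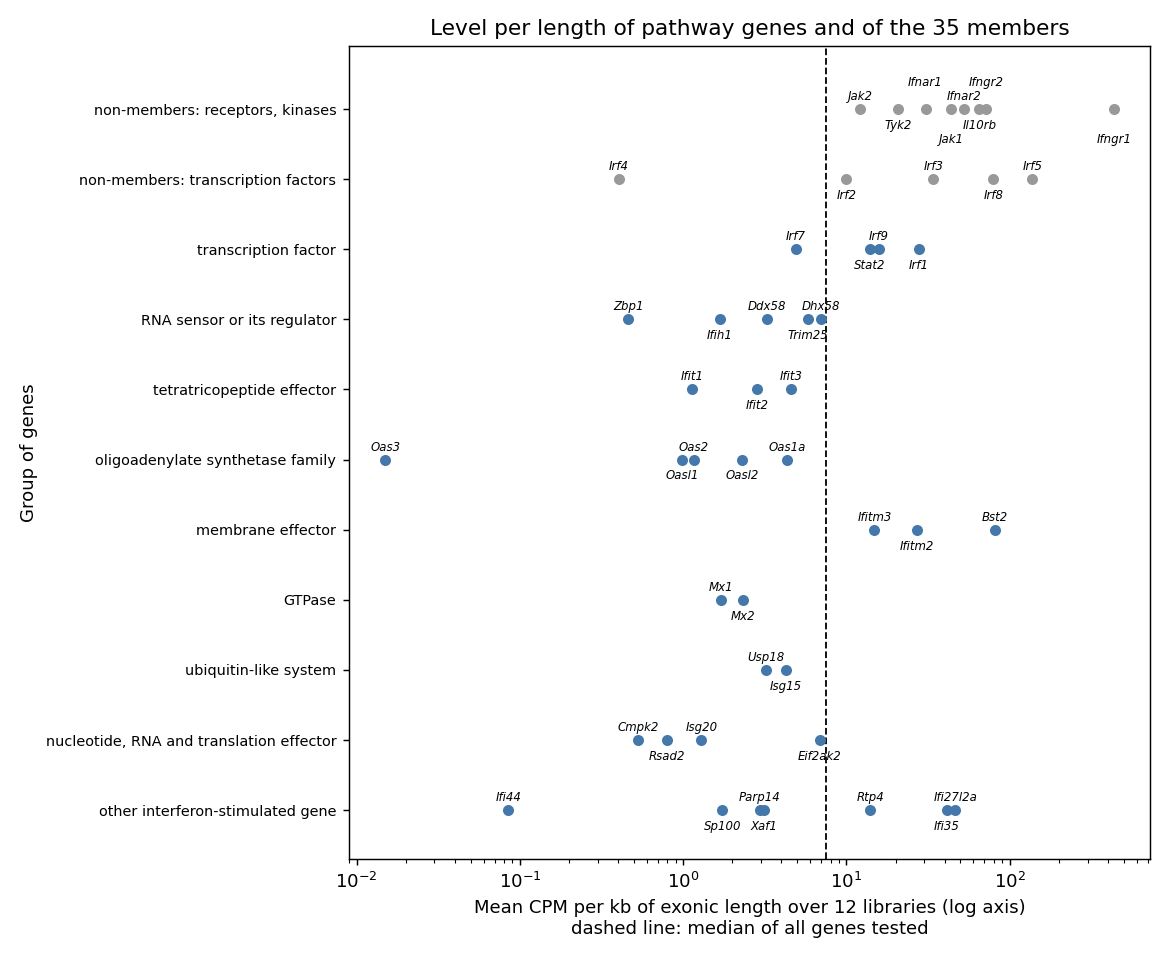
Mean CPM per kb of exonic length over the 12 libraries (horizontal log axis) for the 35 members by role (blue) and for receptors, kinases and some other transcription factors of the pathway (grey), with the median of all tested genes as a dashed line at 7.49. All 8 receptors and kinases lie to the right of the line, and the RNA sensing, tetratricopeptide, oligoadenylate synthetase, GTPase and ubiquitin-like genes lie to its left.

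No member differed between regions beyond the spread of the libraries by the test over all genes. In edgeR's quasi-likelihood test with Benjamini-Hochberg adjustment over 12217 genes, 0 of 33 members and 0 of all genes (0%) passed an adjusted p of 0.05 in any of 8 comparisons: the 6 pairs of regions, cerebellum against the mean of the other 3, and the 4 regions together. At an unadjusted p under 0.05 in edgeR, Stat2 was the only member, in 4 of the comparisons. The matching shares of all genes at that unadjusted level were 1.01% for hippocampus against cortex, 5.59% for striatum against cortex, 1.55% for cerebellum against cortex, 4.34% for striatum against hippocampus, 1.28% for cerebellum against hippocampus, 2.40% for cerebellum against striatum, 1.07% for cerebellum against the mean and 1.82% over the 4 regions. As numbers of genes these were 124, 683, 189, 530, 156, 293, 131 and 222. At the same unadjusted level DESeq2 too had Stat2 as the only member. limma-voom also had Rsad2, for cerebellum against striatum and against the mean, and Isg20 and Oasl1, for striatum against cortex. In these comparisons limma-voom had 276, 206 and 796 of 12217 genes at that level. After adjustment DESeq2 called 0 members and 0 to 13 genes per comparison, and limma-voom called 0 members and 0 genes. These counts do not show that regions are alike: the 95% intervals of the members' log2 differences had a median half-width of 1.58 to 1.59 in the pairs and 1.32 for cerebellum against the mean.

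Among the transcription factors, Stat2, the ISGF3 subunit that gives the complex its transactivation domain (chromosome 10, 128270559 to 128292849, plus strand, GRCm38), was higher in striatum without passing the adjusted test. It was at 96.8, 183 and 103 CPM in striatum 1, 2 and 3. Cortex libraries held 65.6, 67.1 and 67.0 CPM, hippocampus 69.3, 37.7 and 88.2 CPM, and cerebellum 50.02, 82.2 and 79.3 CPM. All 3 striatum libraries, striatum 1 and 3 included, thus lay above all 9 others. Stat2 was 1 of 33 members with such a separation for striatum, where 0.917% of all genes had it in either direction, and no member had it for cortex, hippocampus or cerebellum (0.630%, 0.540% and 0.352% of genes). Against cortex the log2 difference was 0.94 (SE 0.34, 95% interval 0.19 to 1.69, edgeR adjusted p = 0.798). Against hippocampus it was 0.97 (SE 0.34, 0.23 to 1.72, edgeR adjusted p = 0.948), and cerebellum against striatum gave −0.86 (SE 0.34, −1.60 to −0.11, edgeR adjusted p = 1.00). Over the 4 regions F was 4.03 (edgeR adjusted p = 1.00). Without striatum 2, which had the highest choroid plexus markers, the differences were 0.59, 0.62 and −0.51 and F was 1.51, and none of these was at an unadjusted p under 0.05 in edgeR. Without cerebellum 1, the difference between cerebellum and striatum was not at that level either. The part of those markers in the result was not tested.

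Irf9, the DNA-binding subunit of ISGF3, was among the most even members. Its libraries held 69.7, 74.7 and 84.5 CPM in cortex, 91.3, 102 and 71.6 in hippocampus, 87.9, 86.5 and 95.5 in striatum, and 103, 87.9 and 71.3 in cerebellum. The striatum libraries lay above those of cortex by a narrow margin, and hippocampus against cortex gave a log2 difference of 0.21 (SE 0.22, 95% interval −0.27 to 0.69). Its exons share 123 bases with Rnf31 on the same strand, so some of its reads may belong to that gene. Irf1, a factor induced by several cytokines, was at 117, 95.9 and 98.7 CPM in cortex, 108, 108 and 96.2 in hippocampus, 104, 122 and 139.7 in striatum, and 114, 134 and 90.0 in cerebellum. Regions overlapped throughout.

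Irf7, the factor that amplifies interferon production once it is induced, varied far more between libraries of one region than between regions. It was at 15.6, 13.3 and 27.1 CPM in cortex, 26.9, 16.7 and 10.2 in hippocampus, 11.1, 46.7 and 6.96 in striatum, and 22.8, 18.3 and 5.86 in cerebellum. Striatum held both the highest library, striatum 2, and one of the lowest, striatum 3. Stat2 and Irf7 were therefore both highest in striatum 2, and of this pair Stat2 was also high in the other striatum libraries, whereas Irf7 was not.

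**Figure D3:**
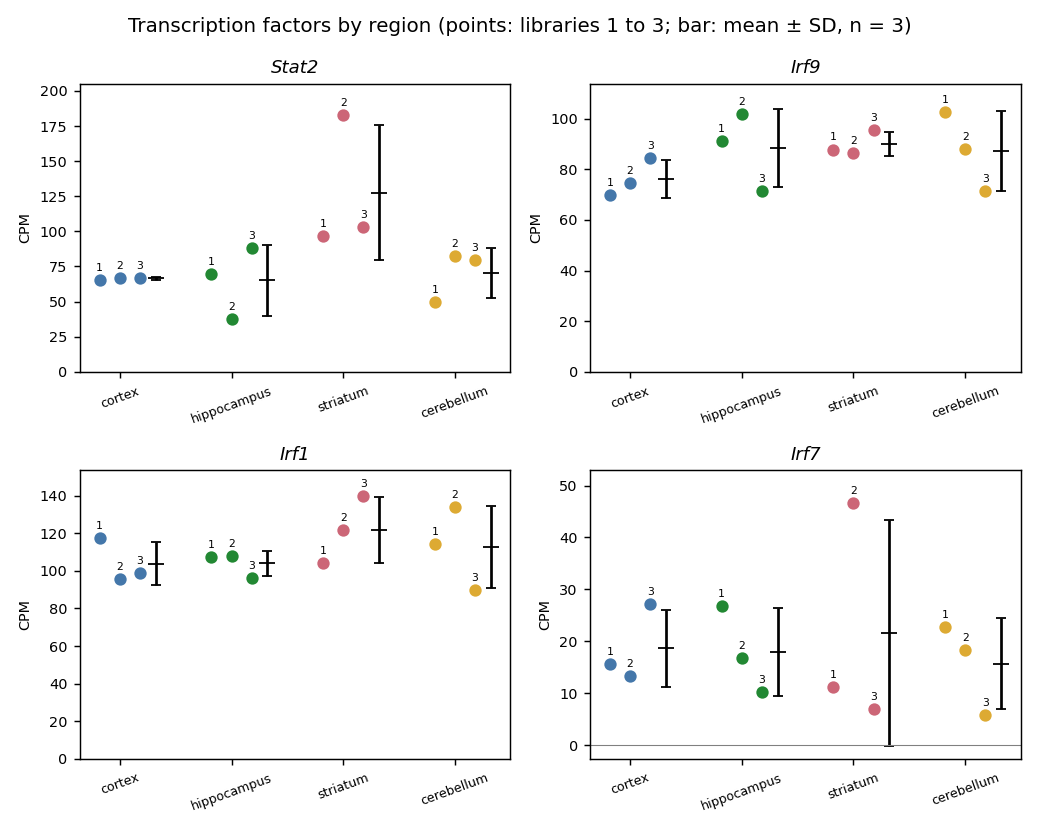
CPM of the 4 transcription factors among the members in each library (points, numbered by replicate) by region, with the mean ± SD of 3 libraries beside them. For Stat2 the striatum points (96.8 to 183) lie above all others, whereas the regions overlap for Irf1 and Irf7 and the 12 libraries of Irf9 lie between 69.7 and 103.

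The genes of RNA and DNA sensing encode the helicases RIG-I (Ddx58), MDA5 (Ifih1) and LGP2 (Dhx58), the ubiquitin ligase of RIG-I Trim25, and the nucleic acid sensor Zbp1. Ifih1 ranged from 9.50 to 18.5 CPM and Dhx58 from 10.49 to 31.5 CPM. Ddx58 was at 16.1 to 41.9 CPM in 11 libraries and at 0.807 CPM in striatum 2. Trim25 was at 13.3, 42.9 and 30.8 CPM in cortex, 20.9, 24.8 and 27.5 in hippocampus, 29.0, 73.0 and 33.6 in striatum, and 22.7, 30.7 and 51.0 in cerebellum. Its striatum libraries lay above those of hippocampus and overlapped with the rest (edgeR over the 4 regions, adjusted p = 1.00). Zbp1, the lowest tested member per length, was at 3.04, 2.46 and 0.418 CPM in cortex, 0.948, 6.28 and 2.02 in hippocampus, 0.828, 0.161 and 0.950 in striatum, and 0.810, 0 and 1.68 in cerebellum. No striatum library reached 1 CPM, yet libraries of cortex, hippocampus and cerebellum fell below that level too (edgeR adjusted p = 1.00).

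The tetratricopeptide proteins of the Ifit family bind foreign RNA. Ifit3 was at 13.8, 17.7 and 2.51 CPM in cortex, 9.59, 3.69 and 5.05 in hippocampus, 1.66, 13.1 and 3.32 in striatum, and 8.22, 9.91 and 7.54 in cerebellum. Cortex and striatum together covered the whole range of the gene. The log2 difference of striatum against cortex was −0.92 (SE 0.90) and that of cerebellum against striatum 0.51 (SE 0.89). Without striatum 2, the highest striatum library, they were −2.17 (SE 0.83) and 1.76 (SE 0.81), both at an unadjusted p under 0.05 in edgeR and neither past the adjusted test (adjusted p = 0.995 and 1.00). Ifit2 ranged from 3.87 to 17.6 CPM in 11 libraries and had no count in striatum 2.

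Ifit1 and Cmpk2, singled out after their values were seen, had no count in the same 4 libraries: hippocampus 1, hippocampus 3, striatum 2 and cerebellum 3. Ifit1 was at 0.455, 3.49 and 5.43 CPM in cortex, 5.63 in hippocampus 2, 6.86 and 1.50 in striatum 1 and 3, and 8.68 and 3.98 in cerebellum 1 and 2. Cmpk2, a mitochondrial nucleotide kinase, was at 3.04, 2.46 and 4.70 CPM in cortex, 6.18 in hippocampus 2, 3.55 and 1.58 in striatum 1 and 3, and 1.39 and 3.67 in cerebellum 1 and 2. Both genes thus went from 0 to above 5 CPM between libraries of hippocampus. Over all tested members, 9 of 33 (27.3%) had at least 1 library without a count, against 23.4% of all tested genes.

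Of the oligoadenylate synthetase family, whose active members make the messenger that switches on RNase L, Oas1a was the steadiest, at 4.73 to 11.4 CPM. Oas2 ranged from 0 in hippocampus 2 to 19.4 CPM in striatum 3. Oasl2, a family member that lies 11.005 kb from Oasl1 on chromosome 5, was at 8.05, 17.98 and 7.83 CPM in cortex, 26.8, 14.5 and 8.70 in hippocampus, 2.60, 31.3 and 10.4 in striatum, and 24.5, 11.4 and 11.2 in cerebellum. Its neighbour Oasl1, an inhibitor of Irf7 translation, did not share this pattern. Oasl1 was at 6.91, 4.01 and 4.91 CPM in cortex, 2.63, 3.78 and 0 in hippocampus, 0, 0 and 1.03 in striatum, and 4.28, 3.28 and 0 in cerebellum. All cortex libraries lay above all hippocampus and striatum libraries. The fitted log2 difference of striatum against cortex was −3.81 (SE 2.04, 95% interval −8.22 to 0.61, edgeR adjusted p = 0.798). It was −8.80 without striatum 3, where the striatum libraries left had no count, so its size depends on that library.

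Among the membrane effectors, Bst2 (tetherin), which holds budding virus at the cell surface, was at 115, 87.2 and 59.3 CPM in cortex, 78.1, 87.9 and 62.4 in hippocampus, 63.4, 30.5 and 72.7 in striatum, and 112, 67.3 and 49.3 in cerebellum. Regions overlapped (edgeR over the 4 regions, adjusted p = 1.00), and striatum 2 was lowest. Ifitm3, which blocks virus entry from endosomes, was at 22.3, 11.8 and 7.41 CPM in cortex, 11.4, 7.57 and 9.01 in hippocampus, 8.99, 7.59 and 4.59 in striatum, and 17.0, 5.00 and 8.26 in cerebellum. Cortex 1 and cerebellum 1 were the high libraries of both genes.

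Ifitm2, which also restricts virus entry, was the member with the smallest p when cerebellum was compared with cortex, hippocampus or the mean of the other regions, and lower in cerebellum each time without passing. Its libraries held 27.1, 16.2 and 21.8 CPM in cortex, 18.3, 26.9 and 17.0 in hippocampus, 10.2, 20.02 and 19.2 in striatum, and 12.5, 8.12 and 15.3 in cerebellum. All cerebellum libraries were below all cortex and hippocampus libraries. Log2 differences were −0.86 against cortex (SE 0.47, 95% interval −1.88 to 0.16), −0.79 against hippocampus (SE 0.47, −1.81 to 0.23) and −0.70 against the mean (SE 0.40, −1.57 to 0.16), each with an edgeR adjusted p = 1.00. Exons of Ifitm2 share 268 bases (40.9% of its length) with a predicted gene on the same strand that is not a row of the count table.

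The ubiquitin-like system comprised Isg15, a ubiquitin-like modifier, and Usp18, the protease that removes it and also restrains the receptor. Isg15 was low everywhere, at 3.04, 2.07 and 5.43 CPM in cortex, 2.63, 2.95 and 3.11 in hippocampus, 2.25, 5.49 and 1.50 in striatum, and 6.37, 2.73 and 0.957 in cerebellum. Cerebellum held its highest and its lowest library. Usp18 was at 13.5, 8.08 and 13.8 CPM in cortex, 7.90, 5.35 and 4.27 in hippocampus, 13.1, 0.161 and 5.93 in striatum, and 12.6, 13.3 and 9.33 in cerebellum. The hippocampus libraries lay below all cortex and all cerebellum libraries, and the log2 difference of hippocampus against cortex was −1.01 (SE 0.95, 95% interval −3.07 to 1.04, edgeR adjusted p = 1.00).

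Rsad2 (viperin), an enzyme that makes a chain-terminating nucleotide, lies 12.8 kb from Cmpk2 on chromosome 12 in the opposite orientation. It was at 0.152, 5.88 and 6.06 CPM in cortex, 0, 2.77 and 1.86 in hippocampus, 0, 0.161 and 2.45 in striatum, and 10.9995, 7.65 and 3.35 in cerebellum. All cerebellum libraries were above all hippocampus and striatum libraries, and cortex 1 was far below the other cortex libraries. The log2 difference of cerebellum was 2.24 against hippocampus (SE 1.72, 95% interval −1.49 to 5.96), 3.01 against striatum (SE 1.78, −0.84 to 6.87) and 2.04 against the mean of the other regions (SE 1.24, −0.64 to 4.71). None passed (edgeR adjusted p = 1.00 each). Without striatum 3 the second and the third of these differences were 6.43 and 3.18, both at an unadjusted p under 0.05 in edgeR, since striatum then held 1 library at 0 and 1 at 0.161 CPM.

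Isg20, an exonuclease that degrades RNA, was at 5.77, 2.46 and 1.88 CPM in cortex, 4.21, 2.31 and 2.10 in hippocampus, 1.66, 0 and 0.554 in striatum, and 4.63, 1.64 and 1.68 in cerebellum. Its striatum libraries lay below all cortex and hippocampus libraries, and the highest of them was just above the lowest of cerebellum. Striatum against hippocampus gave a log2 difference of −1.93 (SE 1.29, 95% interval −4.73 to 0.87, edgeR adjusted p = 0.948), −3.22 without striatum 1 and −1.38 without striatum 2. Eif2ak2, the kinase PKR that stops translation on sensing double-stranded RNA, was at 30.4, 28.1 and 32.8 CPM in cortex, 30.5, 43.5 and 28.0 in hippocampus, 19.9, 47.5 and 41.6 in striatum, and 49.1, 23.9 and 45.5 in cerebellum. The log2 difference of cerebellum against cortex was 0.37 (SE 0.40, 95% interval −0.48 to 1.23), 0.18 without cerebellum 1 and 0.63 without cerebellum 2.

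**Figure D4:**
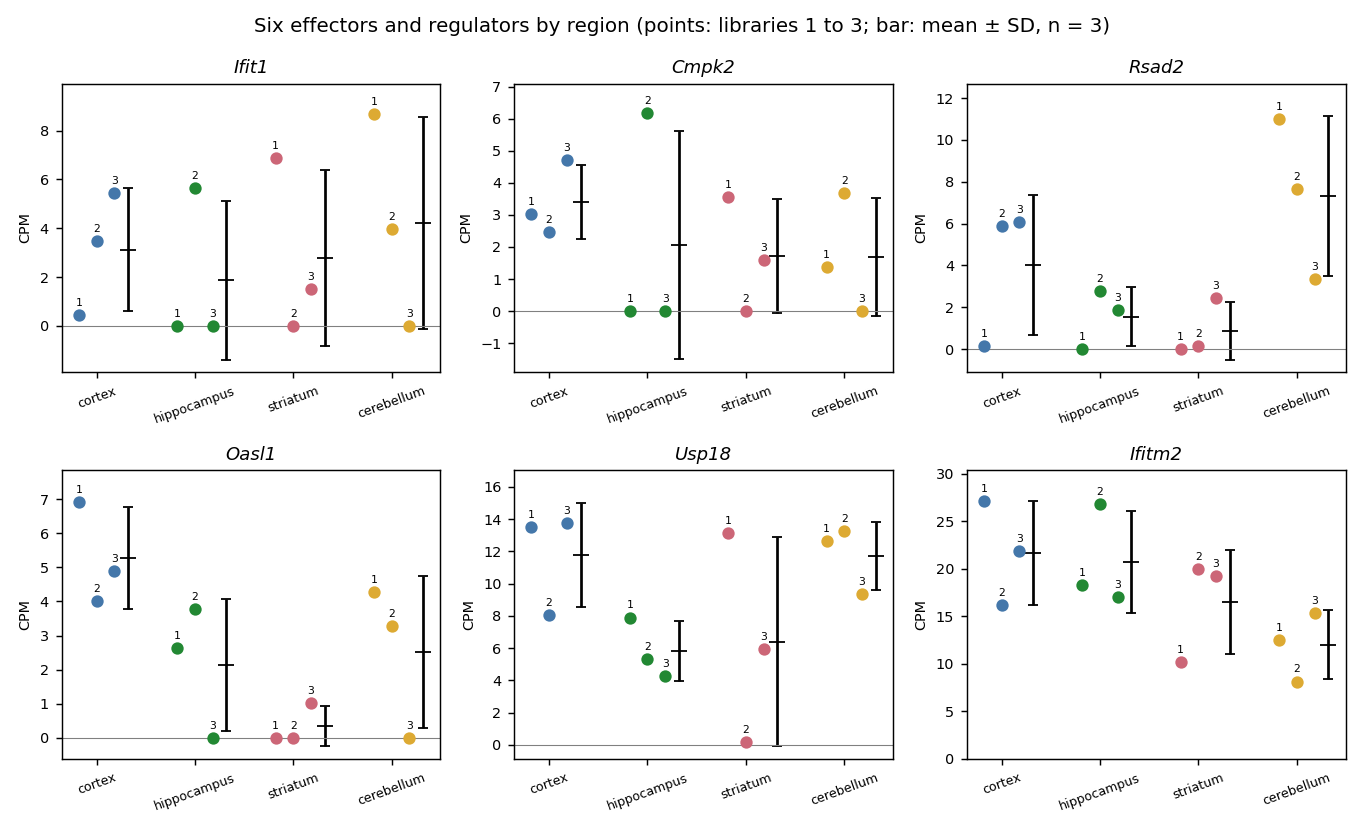
CPM of 6 effectors and regulators in each library (points, numbered by replicate) by region, with the mean ± SD of 3 libraries beside them. Ifit1 and Cmpk2 are at 0 in the same 4 libraries, the hippocampus points of Usp18 (4.27 to 7.90) lie below those of cortex and cerebellum, and the cerebellum points of Ifitm2 (8.12 to 15.3) lie below those of cortex and hippocampus.

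Of the remaining members, Ifi27l2a, which encodes a small mitochondrial protein, was at 43.1, 23.4 and 23.5 CPM in cortex, 24.1, 29.3 and 9.40 in hippocampus, 24.8, 2.91 and 14.5 in striatum, and 33.8, 13.7 and 15.6 in cerebellum. Rtp4, a chaperone of receptor transport, was at 30.8, 22.6 and 25.7 CPM in cortex, 32.02, 29.3 and 22.8 in hippocampus, 38.5, 37.8 and 27.9 in striatum, and 44.9, 26.2 and 19.9 in cerebellum. Rtp4 kept within a 2.26-fold range of its lowest library, whereas Ifi27l2a spanned 14.84-fold, with its lowest value in striatum 2. The others of this group ranged from 49.6 to 107 CPM (Ifi35), 6.00 to 57.3 (Parp14), 7.06 to 25.02 (Xaf1) and 0 to 24.6 (Sp100, at 0 in striatum 2). The antiviral GTPases Mx1 and Mx2, 72.4 kb apart on chromosome 16, ranged from 0.161 to 11.1 CPM and from 0.236 to 24.9 CPM. In striatum 2 Mx1 was at its lowest and Mx2 at its highest.

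Members whose libraries did not overlap between regions were few, and their shares lay on either side of those of all genes. Libraries did not overlap for 2 of 33 members between hippocampus and cortex (Oasl1 and Usp18, lower in hippocampus; 6.68% of all genes) and for 5 between striatum and cortex (10.6% of genes). These 5 were Stat2 and Irf9, higher in striatum, and Ddx58, Oasl1 and Isg20, lower in striatum. Between cerebellum and cortex it was Ifitm2 alone (6.74%), and between striatum and hippocampus Stat2 and Trim25, higher, with Isg20, lower (11.5%). Cerebellum and hippocampus were apart for Usp18, Rsad2 and Ifitm2 (7.64%), and cerebellum and striatum for Rsad2 and Stat2 (6.34%). Without striatum 2, striatum was apart from cortex for 7 members (19.1% of genes), from hippocampus for 6 (20.1%) and from cerebellum for 5 (12.5%), with 2 striatum libraries left to compare. Each pair shares libraries with other pairs, so these counts are not independent.

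As a group the members did not move one way across the comparisons. Hippocampus against cortex had 10 members higher and 23 lower, with a median log2 difference of −0.20 against −0.02 for all genes (47.1% of all genes higher). The members' median in this comparison changed sign in 0 of the alternative settings. It ran from −0.27 to −0.08 when single libraries were left out. Striatum against cortex had 14 higher and 19 lower (median −0.19, all genes −0.06), cerebellum against cortex 16 and 17 (−0.01, all genes 0.01) and striatum against hippocampus 16 and 17 (−0.03, all genes −0.05). Of all genes, 45.7%, 50.9% and 46.1% were higher in these comparisons, in that order. Cerebellum against hippocampus had 22 higher and 11 lower (median 0.12, all genes 0.01, with 51.3% of all genes higher). Cerebellum against striatum had 20 and 13 (0.12, all genes 0.06, with 55.7% of all genes higher). Against the mean of the other 3 regions, 25 members were higher in cerebellum and 8 lower (median 0.10, all genes 0.03), where 54.6% of all genes were higher. That count rested on cerebellum 1, without which 16 of 34 tested members were higher and 18 lower (median −0.04). Without cerebellum 1 the counts were 15 higher and 19 lower against hippocampus (median −0.15), 16 and 18 against striatum (−0.04) and 13 and 21 against cortex (−0.27). Striatum against cortex turned to 18 higher and 15 lower without cortex 3 (median 0.078). Without striatum 2 it had 14 higher and 20 lower (median −0.33), and cerebellum against striatum had 20 and 14 (0.14). Cerebellum against cortex turned to 19 and 15 without cortex 1, 21 and 12 without cortex 3, and 18 and 16 without cerebellum 3, and striatum against hippocampus to 18 and 15 without hippocampus 1 and 17 and 16 without hippocampus 2. The comparisons share libraries, and no test was made on these counts.

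**Figure D5:**
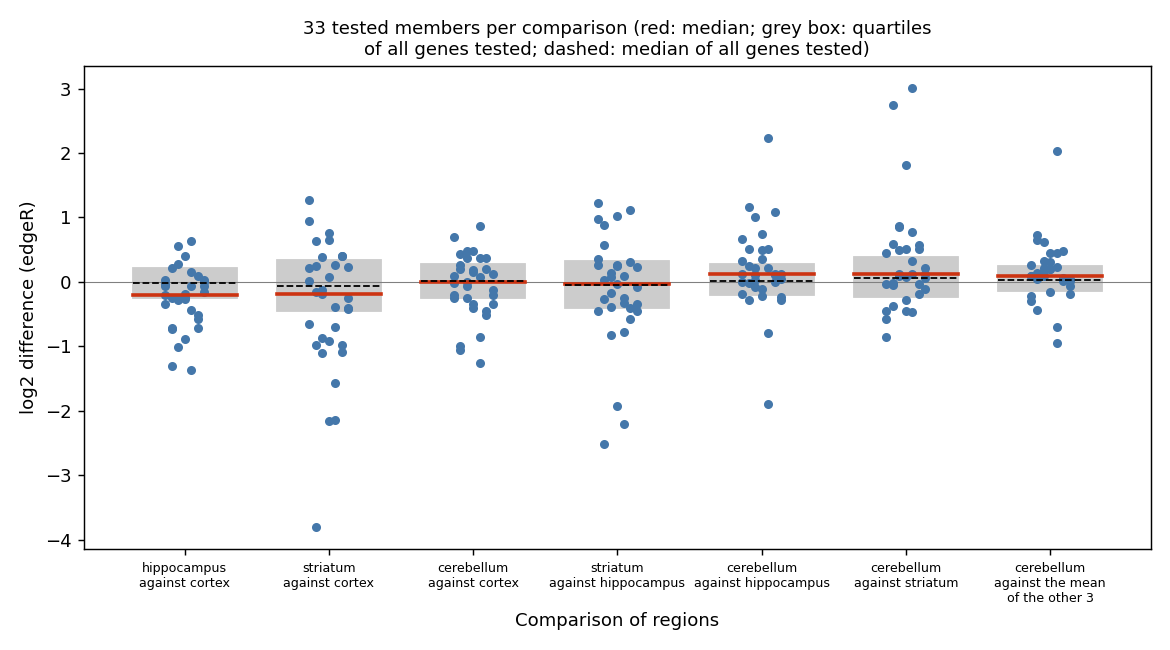
Log2 difference (vertical axis, edgeR) of each of the 33 tested members (points) in 7 comparisons of regions, with the members' median in red, the quartiles of all 12217 tested genes as a grey box and their median as a dashed line. The red lines lie within 0.20 of 0 in each comparison, while many points fall outside the grey boxes, with Oasl1 at −3.81 the farthest below.

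Single libraries carried much of the variation. Cerebellum 1 was the highest of the 12 libraries for 8 of 33 members (24.2%; 6.78% of all genes), namely Dhx58, Eif2ak2, Ifit1, Ifit2, Irf9, Isg15, Rsad2 and Rtp4. The members' median log2 deviation from their mean over all libraries was 0.54 there, against 0.09 for all genes, and all 35 had a count. This library also had the highest sum of microglia markers, 40659 CPM, whose part in the result was not tested. Cortex 1 was highest for 8 members (24.2%, against 16.4% of genes), which were Bst2, Ddx58, Ifi27l2a, Ifi35, Ifitm2, Ifitm3, Isg20 and Oasl1. It also had the highest sum of endothelial markers, 71.7 CPM, whose part was not tested either. Most of that sum was Egfl7 (40.5 CPM) and Pecam1 (22.2 CPM), while Cldn5, Ly6c1 and Slco1a4 were at 0 there. Striatum 2 was highest for 7 members (21.2%; 21.5% of genes), among them Stat2, Irf7 and Trim25, while 8 of the 35 had no count in it. The high library thus differed between members. Dispersion followed level: the median biological coefficient of variation from edgeR was 0.63 for members and 0.42 for all genes, but 0.99 against 0.98 among genes at 1 to 10 CPM and 0.45 against 0.40 at 10 to 100 CPM.

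Outside the set, a list of 99 other pathway genes had 86 rows in the table, 8 of them without a count in any library. Of its 72 tested genes 0 passed in any comparison (edgeR, adjusted p over all genes), and 1 to 7 were at an unadjusted p under 0.05 per comparison. The tested genes were 8 receptors and kinases, 6 transcription factors, 13 sensors and adaptors, 6 brakes, 24 other interferon-stimulated genes and 15 genes of the interferon gamma response. The 6 type I interferon genes of the list, Ifnb1 among them, had 0 counts in all 12 libraries, as had Ifng, the type II interferon. No other type I interferon gene was on the list, so the values do not cover the whole family. The receptor genes were present throughout, Ifnar1 at 149 to 211 CPM and Ifnar2 at 128 to 251 CPM. Irf8, a factor that microglia need to develop, was at 478 to 660.1 CPM, and Irf3, which starts interferon transcription, was at 79.7 to 156 CPM. Irf3 was at 156, 122 and 142 CPM in cortex and 92.7, 93.1 and 79.7 in hippocampus, without overlap (edgeR over the 4 regions, adjusted p = 1.00). Per length, Ifnar1 (30.5 CPM per kb), Ifnar2 (52.7), Irf8 (79.6) and Irf3 (34.1) lay above 30 of the 33 tested members or more. Of the sensors and adaptors, Samhd1 (a nucleotide hydrolase) was at 27.0 to 148 CPM and the endosomal RNA receptor Tlr3 at 25.9 to 80.0 CPM, and of the brakes the phosphatase Ptpn2 was at 41.5 to 75.1 CPM. Among other interferon-stimulated genes that are not members, Slfn5 was at 0 to 7.73 CPM and Ifitm1 at 0 to 11.3 CPM (edgeR adjusted p = 1.00 each), and of the guanylate-binding proteins Gbp9 was at 27.9 to 212 CPM with its maximum in striatum 2 (edgeR adjusted p = 1.00).

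Some members have close relatives or overlapping genes. The kit does not mark strand, so reads of Irf7 cannot be told from those of Phrf1 on the opposite strand, with which it shares 45 exonic bases, nor those of Ifi35 from an antisense predicted gene over 290 bases. Oas1a has the relatives Oas1g and Oas1b in the table, with 103 and 382 counts over all libraries. Ifitm2 and Ifitm3 have Ifitm1 and Ifitm6, with 241 and 7 counts, and Ifi27l2a has Ifi27l2b, with 0 counts. How reads shared between such copies were assigned is not given in the sources used here, so values of Oas1a, Ifitm2, Ifitm3, Ifit1, Ifit3 and Ifi27l2a are uncertain to that extent.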

How the data were processed

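The authors deposited unnormalized counts of reads for each gene symbol. The submitters' processing notes name HTSeq, Picard, STAR 2.5.3a and Trim Galore 0.4.3, and the build mm10. The role of each tool, its annotation and its strand setting were not given in the sources used here. Complementary DNA was made with Smart-Seq v4, per the labels' protocols, a kit that does not mark strand. The number of genes above 0 equalled the detected-gene label in 12 of 12 libraries. The 35 members, the pathway and marker lists and the tests were chosen with earlier results of these data known.

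Testing used edgeR 4.0.16 under R 4.3.3: filterByExpr by region (minimum count 10, minimum total 15), TMM scaling, and the robust quasi-likelihood test of a model with a mean for each region, fitted to all 12 libraries and 12217 genes. P-values were adjusted by Benjamini-Hochberg across the whole table of tested genes, with a threshold of 0.05. CPM values use TMM-scaled library sizes. DESeq2 1.42.0, limma-voom (limma 3.58.1), other filters and scaling, the replicate block and leaving out each library were alternatives. The code of the fits was run on simulated counts. Exonic lengths are from GENCODE M21, where 10998 of the 12217 genes had 1 length. Levels were classed at 1, 10 and 100 CPM. Of the 32 promoter windows of members, 30 ended in a sequence found in a transcript of that gene.

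Values in every library are given for 15 members set by rule (Irf7, Irf9, Stat2, Irf1, Ifitm3, Ifitm2, Bst2, Isg15, Ifit3, Oasl2, Rtp4, Usp18, Ifi27l2a, Rsad2 and Zbp1), the 8 with the smallest p over the 4 regions, and the member with the smallest p in each direction of a comparison. Other pathway genes are named by list (up to 4 with the smallest p), with Ifnar1, Ifnar2, Irf3 and Irf8 always. A gene that the rule names is not reported here.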

Additional observations from a re-analysis of the deposited data

How the results depend on the processing

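No member was called in any of the 8 comparisons under any alternative: upper-quartile scaling, DESeq2, limma-voom, no filter, a mean of at least 50 counts, the replicate block, only the 2 regions compared (pairs only), or without any 1 of the 12 libraries. DESeq2 called genes outside the set: 5 for hippocampus against cortex, 13 for striatum against cortex, 7 for cerebellum against cortex, 2 for cerebellum against hippocampus, 3 for cerebellum against striatum, 5 over the 4 regions and 2 for cerebellum against the mean. The members' median log2 difference of striatum against cortex (−0.19) was −0.47 with limma-voom and 0.043 with a mean of at least 50 counts, and ran from −0.35 to 0.078 when single libraries were left out (0.078 without cortex 3). That of striatum against hippocampus (−0.03) was −0.32 with limma-voom. Without single libraries the medians ran from −0.27 (without cerebellum 1) to 0.084 for cerebellum against cortex and from −0.15 (without cerebellum 1) to 0.24 for cerebellum against hippocampus. Without cerebellum 1 the medians of cerebellum against striatum and against the mean were also below 0, at −0.04 each. The cause of these moves was not tested. Members at baseline in all 4 regions numbered 1, and 2 with a limit of 2 CPM or without cortex 3, where Ifi44 joined Oas3. No log2 difference of a named member changed sign. Leaving out single libraries brought 9 members besides Stat2 to an unadjusted p under 0.05 in some edgeR comparison, and none past the adjusted threshold. They were Ifit3, Parp14, Ifi27l2a, Isg20, Rsad2, Oasl1, Ifit1, Cmpk2 and Ifi44. This count was added after seeing the data and spans 12 libraries left out in turn and 8 comparisons. Genes outside the set were not counted in the same way, so it has no share of all genes beside it. Without striatum 2 alone, 199 to 433 of 12803 genes per comparison were at that level.

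Replicate numbers recur in all regions, and whether same-numbered libraries share mice is not stated. Of 18 same-numbered pairs, 4 had deviations correlated above 0.1 (range −0.12 to 0.29), and 7 of 12 libraries correlated best with their own number. Cortex and cerebellum alone among the 6 pairs of regions had all 3 above 0.1 (0.287, 0.101 and 0.224). Pairs of other numbers ran from −0.225 to 0.198, and cortex 1 and cerebellum 1 were at 0.198 and 0.191 with hippocampus 2. A pairing of cortex and cerebellum is possible, and these values do not settle it. With the replicate block in edgeR, 0 genes were called. The unadjusted p of Stat2 was 0.0512 over the 4 regions, 0.026 for striatum against cortex and 0.0241 for striatum against hippocampus. For cerebellum against striatum, Stat2 and Rsad2 were both under 0.05. In these 3 pairs 733, 528 and 238 of 12217 genes were under 0.05. The unadjusted p of Rsad2 for cerebellum against the mean was 0.0329, with a log2 difference of 4.24. At 3 libraries a region, 13 of the tested members averaged under 10 CPM, where the median biological coefficient of variation was 0.99, and this spread limits which differences in them were detectable.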
